A study of Ovis aries with 9 samples.

Results

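The Notch receptors NOTCH1, NOTCH2, NOTCH3 and NOTCH4, the ligands JAG1, JAG2 and DLL4, and the target genes HES1, HEY1 and HEY2 were followed in the ovaries of 9 ewes. These 10 genes were chosen by symbol as the Notch signalling genes of the follicle and of the blood vessels. Of the 10 symbols, 9 were matched to a row of the count table, and JAG2 was not analysed here because no row was matched to it. The 9 genes had 11 of the 27174 rows of the table, since NOTCH2 and HES1 each had a second row with a numbered suffix (NOTCH2.1 and HES1.1). A suffix of this kind was carried by 1549 rows of the table, transfer RNA genes left out, and the table does not say which row holds which part of a locus, so each row was described on its own.

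Each ewe gave 1 ovary RNA library. D4, D5 and D6 were Dorset sheep labelled wild type, W1, W2 and W4 were Small Tail Han sheep of the genotype FecBBFecBB (Han BB), and W6, W7 and W8 were Small Tail Han sheep of the genotype FecB+ FecB+ (Han ++), so that every group held 3 ewes. FecB is a mutation of the bone morphogenetic protein receptor gene BMPR1B that is known to raise the ovulation rate. All ewes were adult, and in all of them estrus had been synchronized with fluorogesterone acetate sponges and pregnant mare serum gonadotropin before the ovaries were taken at a later, spontaneous estrus. The comparison of Han BB with Han ++ sets the 2 FecB genotypes against each other within a breed, while either Han group differs from Dorset in breed. By the labels, Han BB also differs from Dorset in FecB genotype, and breed and genotype cannot be told apart in that comparison. The comparison of both Han groups with Dorset includes Han BB, so it mixes breed and genotype in part.

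Notch proteins are receptors that sit in the cell membrane and are activated by ligands of the Jagged and Delta families on a neighbouring cell. The bound receptor is cut by proteases, and its inner part moves to the nucleus, where it joins the DNA-binding protein RBPJ and switches on genes of the HES and HEY families, which encode repressors of transcription. In the mammalian ovary the pathway is known for the contact of oocyte and granulosa cells in early follicles and for the growth of vessels in the follicle and the corpus luteum.

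The libraries held between 10803913 (W8) and 20992535 (W7) counted reads, and the 11 Notch rows together took between 5261 (D4) and 19223 (D5) of them. The W4 and D6 libraries stood apart: their rank correlation with each other was 0.978, while the highest with a library of their own group was 0.931 for W4 and 0.949 for D6, and results that rest on them are given also without them. D4, D5 and W1 were likewise nearest to a library of another group, and the highest rank correlation of D4 within Dorset was 0.933 and with any library 0.956. A single row, LOC101101865, took 14.9% of the reads of D4 and 7.69% of those of W8. Values are given as CPM, read counts divided by the TMM-adjusted library size, and errors are SDs over the 3 ewes of a group. Transcript lengths were not used here, so CPM were compared between libraries and not between genes. In whole ovaries, fewer cells of a type and less RNA per cell cannot be told apart.

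A gene was called at an adjusted p under 0.05 together with a change of more than 1.5 times either way, by edgeR's quasi-likelihood test over 16871 rows. Of the 11 Notch rows, 10 passed the filter on low counts and were tested. The row HES1 did not pass, with 2 reads in D5 and 0 reads in each of the other libraries.

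No Notch row was called in any comparison. By edgeR, 0 of 10 were called in Han BB over Dorset, where 0% of all tested rows were, and 0 of 10 in Han ++ over Dorset, where 0.00593% were. Likewise 0 of 10 were called in Han BB over Han ++ and in both Han groups over Dorset, each against 0% of all tested rows, and 0 of 10 in the test for any difference among the 3 groups, again against 0%. The number of Notch rows called in each of these comparisons was also 0 by DESeq2 and by limma voom with quality weights. At an unadjusted p under 0.05, HES1.1 was the single Notch row in Han BB over Dorset (background 4.99%), in Han ++ over Dorset (5.27%), in both Han groups over Dorset (6.12%) and in any difference (3.94%), by edgeR, DESeq2 and limma alike, and in Han BB over Han ++ the number was 0 (1.97%).

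**Figure D1:**
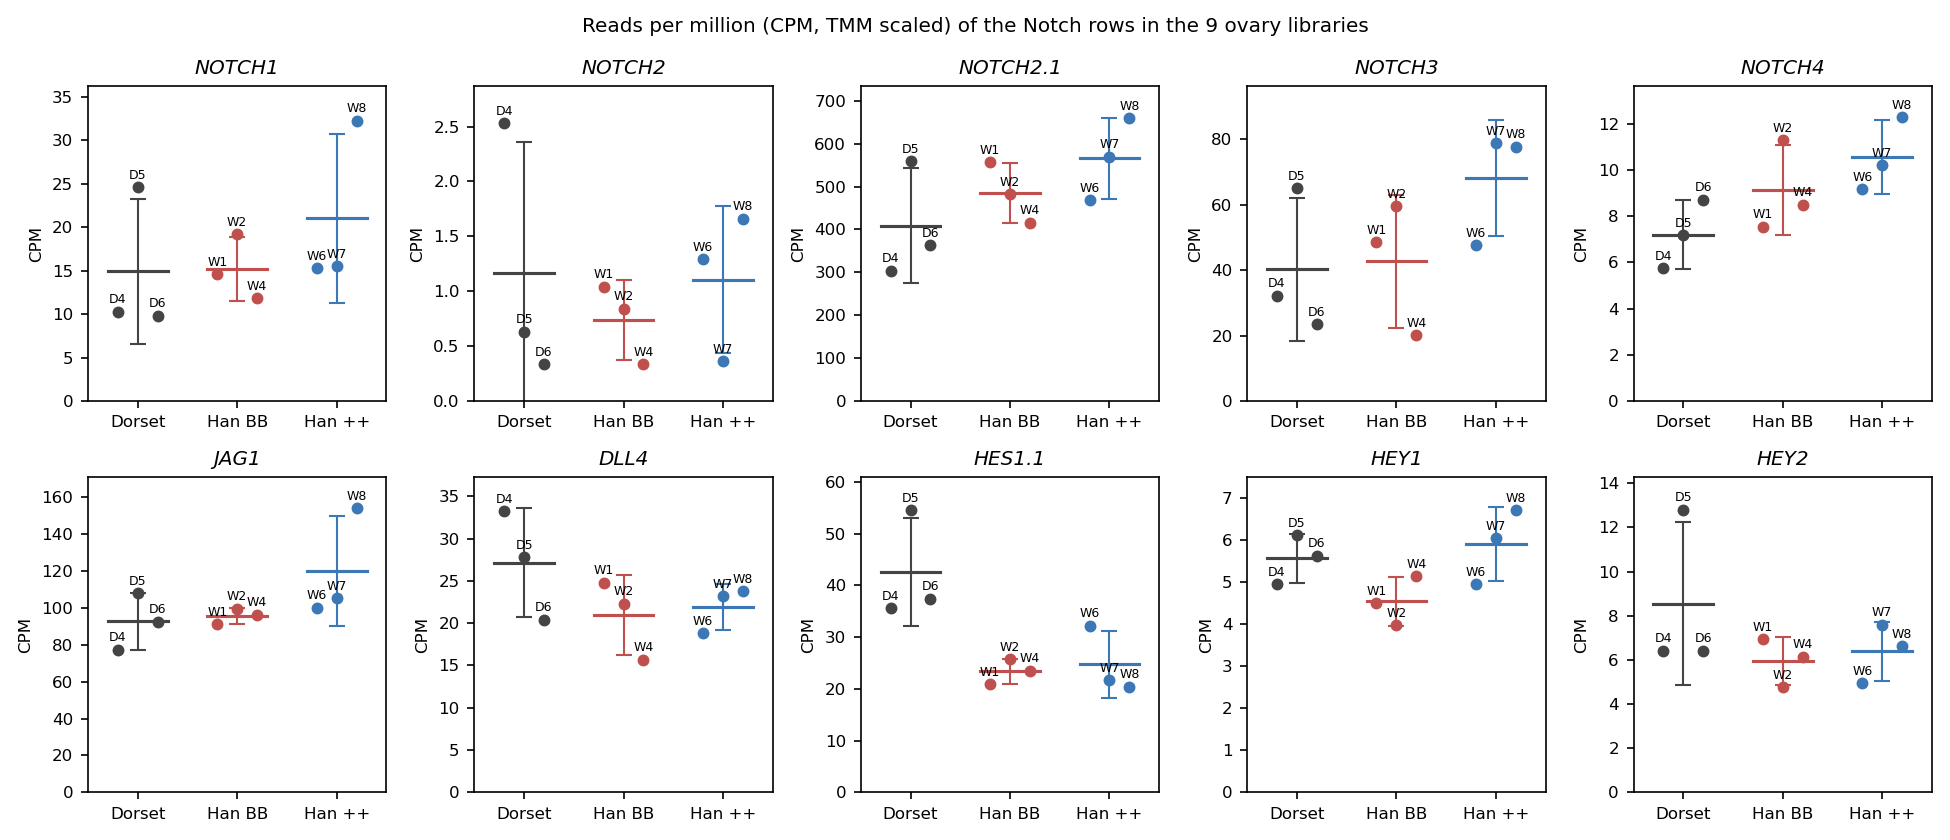
CPM (TMM scaled, y axis from 0) of the 10 tested Notch rows in the 3 groups. Points are single ewes with their names, the horizontal line is the group mean and the bar is the SD over 3 ewes. HES1.1 was the single row in which all 3 Dorset values (35.6 to 54.5 CPM) were above all 6 Han values (20.4 to 32.2 CPM).

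Among the receptors, NOTCH1, which is needed for artery formation and for many cell fate choices, had 10.3, 24.6 and 9.83 CPM in the Dorset ewes D4, D5 and D6. It had 14.6, 19.2 and 11.8 CPM in the Han BB ewes W1, W2 and W4, and 15.3, 15.5 and 32.3 CPM in the Han ++ ewes W6, W7 and W8. The 3 groups overlapped, the highest value (W8) was 3.29 times the lowest (D6), and Dorset averaged 14.9 ± 8.37, Han BB 15.2 ± 3.74 and Han ++ 21 ± 9.78 CPM (SD, n = 3).

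NOTCH2 is a receptor that granulosa cells are known to carry, and its reads lay almost wholly in the row NOTCH2.1. That row had 304, 560 and 363 CPM in D4, D5 and D6, then 557, 483 and 416 CPM in W1, W2 and W4, and 469, 570 and 659 CPM in W6, W7 and W8. Dorset averaged 409 ± 134, Han BB 485 ± 70.6 and Han ++ 566 ± 95.2 CPM (SD, n = 3), and the groups overlapped because D5 was as high as the Han ewes. NOTCH2.1 took between 84.2% and 91.1% of the reads of the 5 receptor rows in a library, a share that also depends on the lengths of the transcripts. The row NOTCH2 had between 5 and 27 reads in a library, which came to 2.53, 0.631 and 0.335 CPM for Dorset, 1.04, 0.841 and 0.334 for Han BB, and 1.29, 0.362 and 1.66 for Han ++. The values of the row NOTCH2 spanned a factor of 7.57 with no separation of the groups, and those of NOTCH2.1 a factor of 2.17.

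NOTCH3 is the receptor of vascular smooth muscle cells and pericytes. Its values were 32.2, 65 and 23.4 CPM for Dorset, 48.5, 59.5 and 20.1 for Han BB, and 47.7, 78.9 and 77.7 for Han ++. The lowest 2 of the 9 values were those of W4 and D6, the libraries that stood apart, and the highest 2 those of W7 and W8. Dorset averaged 40.2 ± 21.9, Han BB 42.7 ± 20.3 and Han ++ 68.1 ± 17.7 CPM (SD, n = 3). The share of NOTCH3 in the reads of the receptor rows was 4.41% in W4 and 5.77% in D6, and between 7.71% and 11.7% in the other 7 libraries.

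NOTCH4, a receptor of endothelial cells, had 5.74, 7.17 and 8.71 CPM in the Dorset ewes, 7.55, 11.3 and 8.5 in Han BB, and 9.16, 10.2 and 12.3 in Han ++. All 3 Han ++ values were above all 3 Dorset values, with means of 10.6 ± 1.62 and 7.21 ± 1.49 CPM, and Han BB (9.11 ± 1.94 CPM) overlapped both. The separation of Han ++ from Dorset was narrow, with W6 at 9.16 and D6 at 8.71 CPM. The summed CPM of the endothelial marker list (13 of 15 symbols matched, among them PECAM1, CDH5 and VWF; the row of CLDN5 was at 0) ran from 821 to 928 (Dorset), 762 to 953 (Han BB) and 706 to 842 (Han ++), and its part in the NOTCH4 values was not tested.

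Of the ligands, JAG1, the Jagged ligand of oocytes and vessels, had 77.3, 108 and 92.5 CPM in the Dorset ewes, 91.1, 99.5 and 96.3 in Han BB, and 100, 105 and 154 in Han ++. Its highest value was 1.99 times its lowest, and its coefficient of biological variation, 0.268, was at the 7.4th percentile of all tested rows. All 3 Han BB values were below all 3 Han ++ values, but W2 (99.5 CPM) and W6 (100 CPM) were almost equal, and the means were 95.6 ± 4.23 and 120 ± 29.7 CPM with the high value of W8.

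DLL4, the Delta ligand of sprouting and arterial endothelium, had 33.2, 27.8 and 20.4 CPM in the Dorset ewes, 24.8, 22.3 and 15.7 in Han BB, and 18.8, 23.2 and 23.8 in Han ++. D4 and D5 were the highest of the 9 libraries, D6 lay among the Han ewes, and the means were 27.1 ± 6.4, 20.9 ± 4.69 and 21.9 ± 2.74 CPM (SD, n = 3). DLL4 was 22.1 to 42.9 reads per 100 JAG1 reads in Dorset and 15.4 to 27.2 in the 6 Han ewes, so that this ratio of the 2 ligands overlapped between the breeds. The list of arterial markers was led by NRP1 with 274 to 432 CPM, and its other rows, among them EFNB2.1, GJA5 and GJA4, had at most 39.8 CPM. The list summed to 391 to 419 CPM (Dorset), 346 to 490 CPM (Han BB) and 378 to 521 CPM (Han ++), and its part in the DLL4 values was not tested.

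The target HES1 encodes a repressor that many cell types switch on when Notch is activated, and which other pathways also control. Its row HES1.1 had 35.6, 54.5 and 37.4 CPM in D4, D5 and D6. It had 20.9, 25.7 and 23.5 CPM in W1, W2 and W4, and 32.2, 21.7 and 20.4 CPM in W6, W7 and W8. Every Dorset value lay above every Han value, while the 2 Han groups overlapped. Dorset averaged 42.5 ± 10.4, Han BB 23.4 ± 2.42 and Han ++ 24.7 ± 6.46 CPM (SD, n = 3), and the 6 Han ewes together averaged 24.1 ± 4.42 CPM.

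HEY1, a repressor of the same family that acts in vessels, had 4.96, 6.13 and 5.64 CPM in the Dorset ewes, 4.51, 3.99 and 5.15 in Han BB, and 4.96, 6.06 and 6.72 in Han ++. The factor of 1.68 between its highest and its lowest value was the smallest of the 10 tested rows, and the groups overlapped (5.58 ± 0.586, 4.55 ± 0.58 and 5.92 ± 0.89 CPM). HEY2, which takes part in arterial identity, had 6.42, 12.8 and 6.42 CPM in the Dorset ewes, 6.93, 4.76 and 6.15 in Han BB, and 4.96, 7.6 and 6.63 in Han ++. Its Dorset mean of 8.55 ± 3.68 CPM rested on D5, since D4 and D6 lay within the range of the Han ewes.

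In Han BB over Dorset, HES1.1 was lower by a log2 fold change of -0.86 (standard error 0.29, 95% interval -1.5 to -0.23), a fold of 0.549, which had an unadjusted p of 0.0119 and an adjusted p of 0.97 in edgeR's quasi-likelihood test and was not called. HES1.1 was also the single Notch row whose Han BB and Dorset values did not overlap, a property of 8.79% of all tested rows. The row NOTCH2 had a log2 fold change of -0.61 (standard error 0.98; edgeR adjusted p = 0.997), which rested on few reads and turned to 0.61 without D4 and to 0.45 in limma voom with quality weights. The log2 fold changes of the other 8 rows lay between -0.53 (HEY2) and 0.33 (NOTCH4). Of the 10 rows, 5 were above 0 and 5 below, with a median of -0.14, beside a median of -0.01 and 49.4% above 0 over all tested rows. The median of the Notch rows was 0.04 without D5 and -0.24 without D6.

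In Han ++ over Dorset, which uses the same Dorset libraries, HES1.1 had a log2 fold change of -0.78 (standard error 0.29, 95% interval -1.41 to -0.15), a fold of 0.582, with an unadjusted p of 0.0198 and an adjusted p of 0.873 in edgeR. NOTCH3 had a log2 fold change of 0.76 (standard error 0.46; edgeR adjusted p = 1), which was 0.47 without W4 and D6. NOTCH4 on the higher side and HES1.1 on the lower were the 2 rows of 10 whose groups did not overlap, against 11.1% of all tested rows. The other log2 fold changes ran from -0.42 (HEY2) to 0.55 (NOTCH4). Above 0 were 6 of the 10 rows, with a median of 0.23, beside -0.06 and 44.1% above 0 over all tested rows. Without W8 the median of the Notch rows was 0.03, and without W7 it was 0.4.

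For both Han groups together over Dorset, HES1.1 had a log2 fold change of -0.82 (standard error 0.24, 95% interval -1.35 to -0.29), a fold of 0.565. All 6 Han ewes were below all 3 Dorset ewes, which held for 1.93% of all tested rows in this direction and for 3.76% in either, and edgeR gave an unadjusted p of 0.00576 and an adjusted p of 0.534. The adjusted p ranged from 0.114 to 0.71 over the other settings tried and from 0.349 to 0.998 when single libraries were left out. Without W4 and D6 the log2 fold change was -0.92, with an edgeR adjusted p of 0.317. Without D5, the highest Dorset library, it was -0.6, with an edgeR adjusted p of 0.998.

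Lists of cell type markers were summed beside the HES1.1 values. The oviduct secretory list (5 of 6 symbols matched) was led by OVGP1 with 371 to 1820 CPM, while its other rows had at most 36.8 CPM. It summed to 396 to 759 CPM (Dorset), 881 to 1170 CPM (Han BB) and 828 to 1890 CPM (Han ++). Dorset was thus below all Han ewes in a sum made up mostly of 1 row. Of all 16871 tested rows, 309 were higher in every Han library than in every Dorset library. The theca list summed to 153 to 203 CPM (Dorset), 86.2 to 145 CPM (Han BB) and 78.2 to 165 CPM (Han ++), and the granulosa list (8 of 10 symbols) to 241 to 408, 225 to 274 and 264 to 380 CPM. The luteal list ranged from 271 to 1720 CPM within Dorset alone, from 357 to 1690 within Han BB and from 845 to 1490 within Han ++. The ciliated list (7 of 8 symbols) summed to 80 to 208, 107 to 377 and 166 to 288 CPM in the same order, and 7 of its 7 tested rows were above 0 both in Han BB over Dorset (median 0.93) and in Han ++ over Dorset (median 0.79), with 0 called. The mural list of vessel walls, led by MYH11 (1310 to 5940 CPM) and ACTA2 (1340 to 2950 CPM), summed to 4870 to 9800, 5080 to 7410 and 5300 to 8400 CPM. The oocyte list was led by KIT with 39.3 to 74.2 CPM, while its other rows had at most 9.73 CPM. It summed to 56.8 to 74.6, 67.1 to 85.3 and 73.7 to 91.7 CPM, and the immune list to 182 to 678, 386 to 660 and 293 to 439 CPM. The part of these cell types in the HES1.1 values was not tested.

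**Figure D2:**
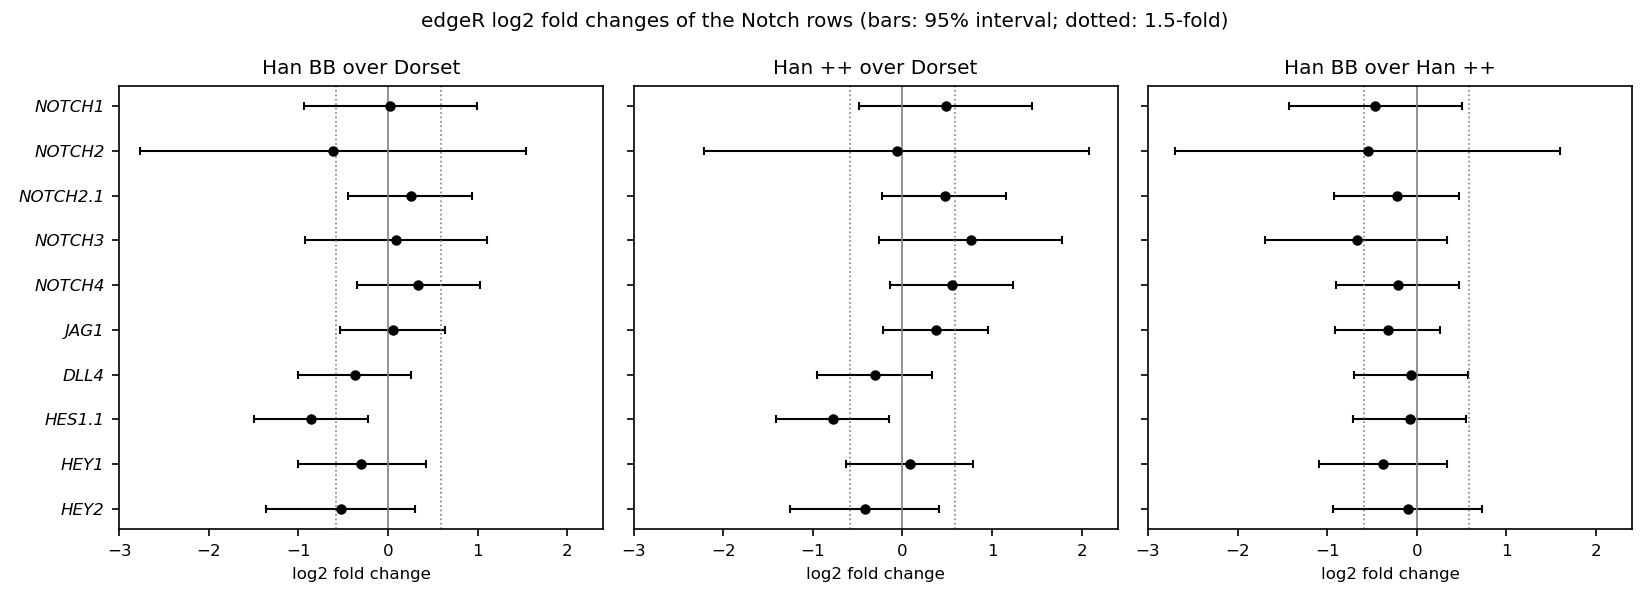
edgeR log2 fold changes of the 10 tested Notch rows (x axis) in the 3 pairwise comparisons, with bars of 95% intervals. Dotted lines mark a fold of 1.5 either way. The bars of HES1.1 lie wholly below 0 in both comparisons with Dorset, and every other bar includes 0.

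Between the FecB genotypes, all 10 rows had a log2 fold change of Han BB over Han ++ below 0, from -0.67 (NOTCH3) to -0.06 (DLL4), with a median of -0.27. Without W8, the highest library for 5 of the rows, the median was -0.11. Over all tested rows the median was 0.04, and 53.4% were above 0. The rows come from the same 6 libraries and are not independent, and no single row separated from 0: NOTCH3 had -0.67 (standard error 0.46; edgeR adjusted p = 0.999), which was -0.34 without W4 and D6. Without these 2 libraries 1 of the 10 rows was above 0, and in limma voom with quality weights 3 were. JAG1 was the single row without overlap of the 2 genotypes, against 9.38% of all tested rows. HES1.1 had a log2 fold change of -0.08 between the genotypes (95% interval -0.71 to 0.55), an interval that includes a fold of 1.5 downwards.

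The reads of the targets were also set against those of NOTCH2.1 in the same library, a ratio that does not depend on the library total. These ratios were chosen after the values had been seen and were not tested, and all of them share a denominator that was lowest in D4 and averaged 409 CPM in Dorset and 526 CPM in the Han ewes. Of all other tested rows, 6.66% had a ratio to NOTCH2.1 that was lower in every Han library than in every Dorset library. HES1.1 had 11.7, 9.75 and 10.3 reads per 100 NOTCH2.1 reads in D4, D5 and D6. It had 3.75, 5.32 and 5.66 in W1, W2 and W4, and 6.86, 3.81 and 3.09 in W6, W7 and W8. The Dorset mean of 10.6 ± 1.02 (n = 3) stood beside 4.75 ± 1.43 over the 6 Han ewes, with no overlap. Set against JAG1 instead, HES1.1 was 40.5 to 50.4 reads per 100 in Dorset and 13.2 to 32.1 in the Han ewes, and set against NOTCH1 it was 222 to 381 and 63 to 210, both without overlap, as for 3.6% and 1.79% of all other tested rows in this direction.

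The ratios of other Notch genes to NOTCH2.1 were read in the same way. HEY2 had 1.77 to 2.29 reads per 100 NOTCH2.1 reads in Dorset and 0.986 to 1.48 in the Han ewes, and DLL4 had 4.96 to 10.9 and 3.61 to 4.63, so that neither ratio overlapped between the breeds although the CPM of both genes did. HEY1 overlapped, with 1.1 to 1.63 in Dorset and 0.81 to 1.24 in the Han ewes. JAG1 overlapped as well, with 19.3 to 25.5 reads per 100 NOTCH2.1 reads in Dorset and 16.4 to 23.4 in the Han ewes. So did the receptors NOTCH1 (2.71 to 4.39 and 2.63 to 4.91), NOTCH3 (6.44 to 11.6 and 4.84 to 13.9) and NOTCH4 (1.28 to 2.4 and 1.36 to 2.34).

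**Figure D3:**
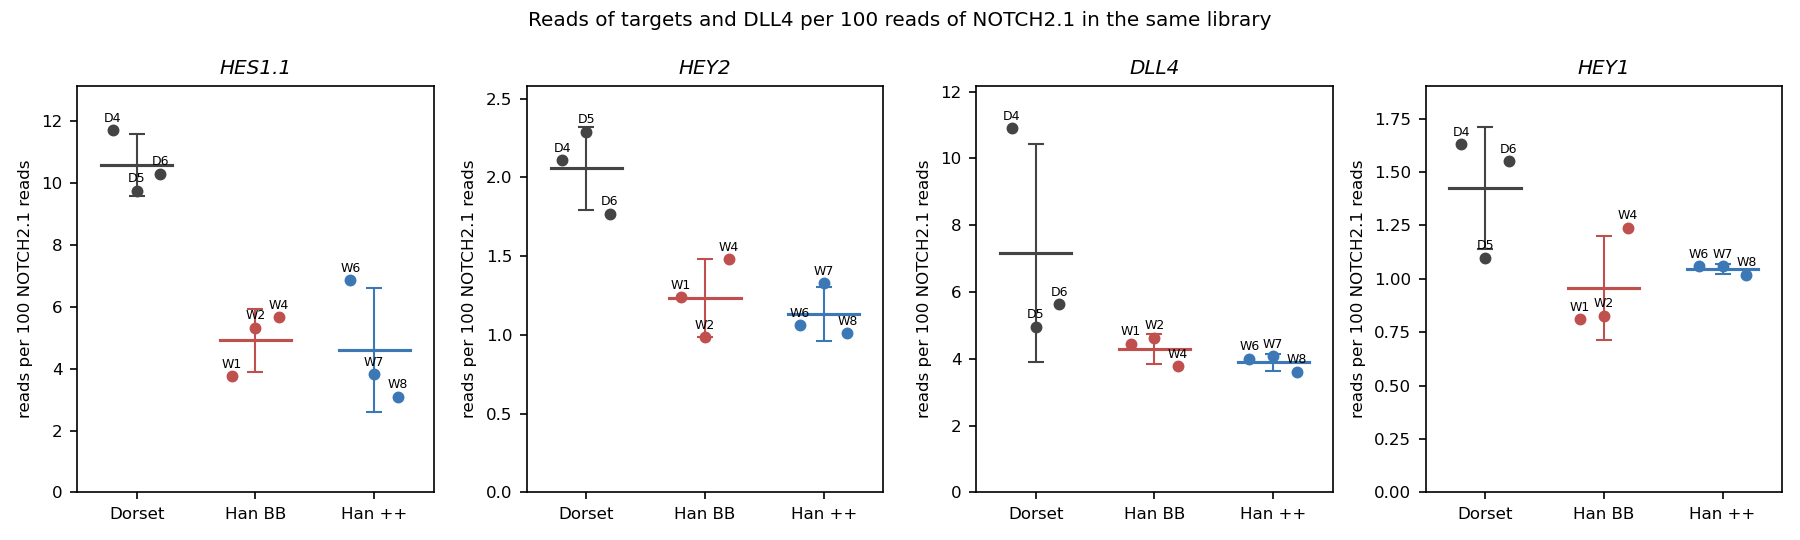
Reads of HES1.1, HEY2, DLL4 and HEY1 per 100 reads of NOTCH2.1 in the same library (y axis from 0). Points are single ewes, lines are group means and bars are SDs over 3 ewes. The Dorset values of HES1.1, 9.75 to 11.7, lie above all Han values, 3.09 to 6.86.

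The Notch rows varied together only in part over the 9 libraries. In log2 CPM, Pearson's r was 0.862 between NOTCH1 and JAG1, 0.84 between NOTCH1 and NOTCH2.1, and 0.805 between NOTCH1 and NOTCH3, as a description over 9 libraries that share their depth and scaling. HES1.1 had r of -0.386 with NOTCH2.1, -0.303 with JAG1 and 0.323 with DLL4. Its highest r with a Notch row was 0.49, with HEY2, and its lowest was -0.556, with NOTCH4. D4 was the lowest library for NOTCH2.1, NOTCH4 and JAG1 and the highest for DLL4 and the row NOTCH2. W8 was the highest library for NOTCH1, NOTCH2.1, NOTCH4, JAG1 and HEY1, and D5 for HES1.1 and HEY2.

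**Figure D4:**
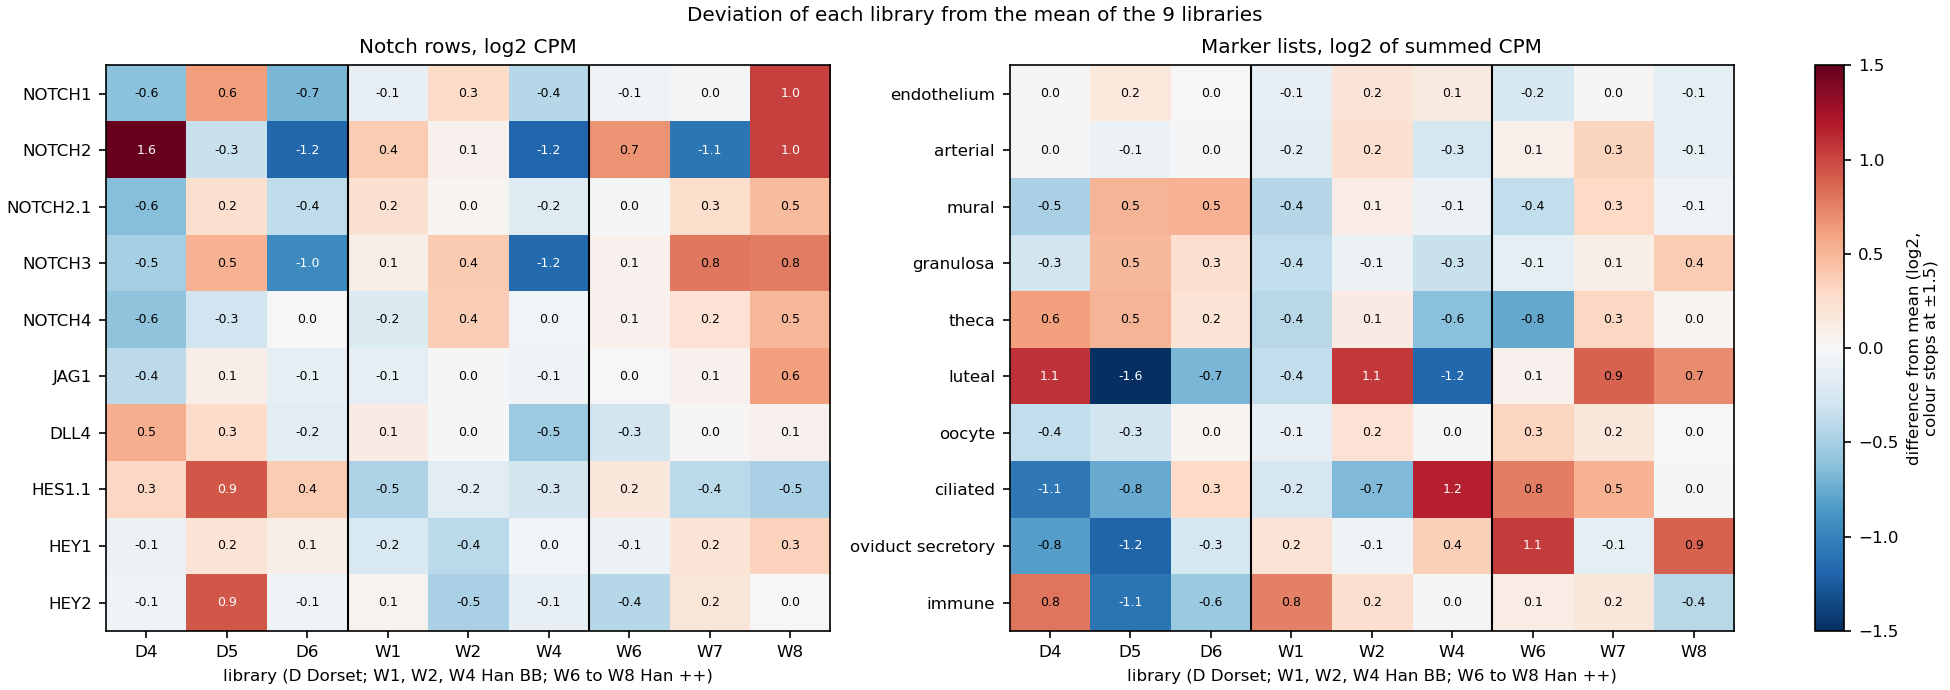
Difference of each library from the mean of the 9 libraries on the log2 scale, for the 10 tested Notch rows (left) and for the summed CPM of 10 marker lists (right). Red is above and blue below the mean, and the colour stops at 1.5 either way. HES1.1 is above the mean in D4, D5 and D6 (0.31, 0.93 and 0.38) and in W6 (0.17), and the oviduct secretory list is below it in all 3 Dorset libraries.

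Among all tested rows, those whose log2 CPM were most like a Notch row over the 9 libraries were picked by Pearson's r. NOTCH3 was most like MRC2 (r = 0.988; 0.972 over 7 libraries without W4 and D6) and PI4KA (0.979 and 0.979), and DLL4 was most like DVL1 (0.979 and 0.983) and UNC119B (0.971 and 0.942). NOTCH2.1 was most like UBR4 (0.975 and 0.976) and CRTC3 (0.97 and 0.976), NOTCH1 like FOCAD (0.96 and 0.96) and PLXNA2 (0.947 and 0.94), and NOTCH4 like KCNK3 (0.973 and 0.98) and LOC101122794 (0.936 and 0.947). HES1.1 was most like C12H1orf115 (0.939 and 0.936) and BRD9 (0.922 and 0.917), HEY1 like STK40 (0.95 and 0.954) and TMEM181 (0.94 and 0.944), and HEY2 like LOC101118138 (0.977 and 0.997) and LOC101102952 (0.975 and 0.984). The thinly counted row NOTCH2 was most like BATF3 (0.979 and 0.969) and LOC101111924 (0.96 and 0.936). Each r is the highest or next highest of 16871 rows over 9 libraries that share their depth, and it is a description only.

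The rest of the pathway was read from a list of 63 symbols, from further ligands to inhibitors of the receptor. No row was matched to 5 of them (NEURL1, TLE1, NRARP, HES4 and HES6), and the others had 69 rows. Of these, 59 were tested, and 10 were under the filter (DLL3, DLK2, RBPJ.1, MAML1, MAML2.1, ITCH.1, DTX1, DTX3, HES5 and HES7). By edgeR, DESeq2 and limma, 0 of them were called in each comparison. At an unadjusted p under 0.05 in edgeR, 4 of 59 were found in Han BB over Dorset, 1 in Han ++ over Dorset, 1 in Han BB over Han ++ and 4 in both Han groups over Dorset, all of them lower in the group named first. The same held for 2.89%, 2.66%, 1.09% and 3.5% of all tested rows. Their median log2 fold change was -0.11 in Han BB over Dorset (20 of 59 above 0), -0.07 in Han ++ over Dorset (26 of 59) and -0.02 in Han BB over Han ++ (26 of 59).

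TLE2, a corepressor of the Groucho family through which HES proteins silence their targets, had the smallest unadjusted p among these rows in both comparisons with Dorset. It had 9.25, 13.7 and 9.05 CPM in D4, D5 and D6, then 3.99, 4.62 and 5.22 CPM in W1, W2 and W4, and 2.58, 5.07 and 5.25 CPM in W6, W7 and W8. All Dorset values were thus above all Han values, which held for 2 of the 59 pathway rows, TLE2 and MIB2, and for 1.93% of all tested rows. On the log2 scale the fold change was -1.21 for Han BB over Dorset (standard error 0.37; edgeR adjusted p = 0.968), -1.31 in Han ++ over Dorset (standard error 0.37; edgeR adjusted p = 0.624) and -1.26 in both Han groups over Dorset (standard error 0.31; edgeR adjusted p = 0.438).

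MIB2, a ubiquitin ligase that drives the uptake of Notch ligands, had 29.1, 36.1 and 29.9 CPM in Dorset and 15.3 to 26.7 CPM in the 6 Han ewes. Its log2 fold change for both Han groups over Dorset was -0.58 (standard error 0.24; edgeR adjusted p = 0.743). DTX3.1, a row of the Deltex family gene DTX3, had 31.4, 41.5 and 19.1 CPM in Dorset and 13 to 22.8 CPM in the Han ewes, with a log2 fold change of -0.87 in Han BB over Dorset (standard error 0.34; edgeR adjusted p = 0.975), and D6 lay within the Han range. The 2 other rows at an unadjusted p under 0.05 were low: DLK1, a ligand-like protein without the domain that activates Notch, had 2 to 39 reads in a library, and POFUT1.1, a row of the fucosyltransferase gene POFUT1, had 0 to 46. Their log2 fold changes in Han BB over Dorset were -2.67 (standard error 1.03) and -4.01 (standard error 1.34). The row POFUT1, which held most reads of that gene with 131 to 353 in a library, had 0.26 (standard error 0.31) in the same comparison.

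The steps inside the cell were read from the nuclear complex and the proteases. RBPJ, the DNA-binding partner of the receptor, had 64.7 to 123 CPM over the 9 libraries, with a log2 fold change of 0.11 in Han BB over Dorset (95% interval -0.51 to 0.73) and 0.12 in Han ++ over Dorset (-0.5 to 0.74). The 10 tested rows of the nuclear complex had a median of 0.05 and 0.18 in these comparisons. Of the 9 tested protease rows, 5 were above 0 in Han BB over Dorset and 6 in Han ++ over Dorset, with medians of 0.16 and 0.08. ADAM10 and ADAM17, which make the first cut of the bound receptor, had 98.9 to 258 and 45.5 to 136 CPM. The highest 2 libraries for both were W4 and D6, the libraries that stood apart. W4 and D6 were also the highest 2 for SNW1 of the nuclear complex (293 and 268 CPM). For PSENEN, another row of the protease list, they were the lowest 2 (14.9 and 16.5 CPM). All 6 tested rows for the uptake of ligands, MIB2 and both rows of MIB1 included, were below 0 in Han BB over Dorset, with a median of -0.37. In Han ++ over Dorset 4 of 6 were below 0, with a median of -0.22. None of the 6 had an unadjusted p under 0.05 by edgeR in these comparisons, and over all tested rows 49.4% and 44.1% were above 0. The inhibitors and turnover genes of the receptor (1 of 10 rows above 0) and the corepressors (3 of 12) also leaned below 0 in Han BB over Dorset. These counts by role used values rounded to 2 decimals, at which DTX2, an inhibitor row, was 0 and was not counted as above 0. HEYL, a further target found in vessel walls, had 10.8 to 55.5 CPM, the lowest in W4 and the highest in W8, with overlap of all groups.

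**Figure D5:**
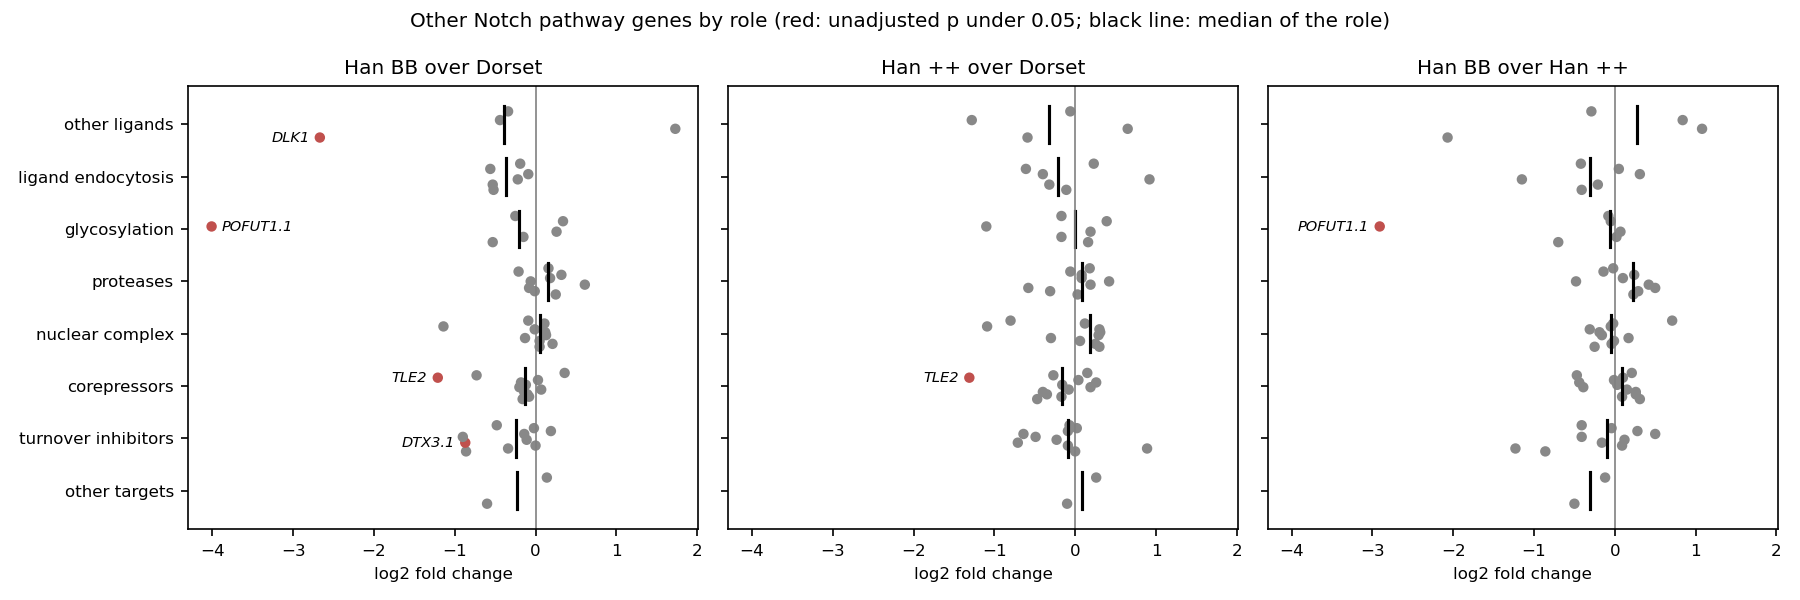
edgeR log2 fold changes (x axis, the same in each panel) of the 59 other tested Notch pathway rows by role. Each point is a row, red where the unadjusted p was under 0.05, and black lines are the medians of the roles. The red rows all lie below 0, and none was called after adjustment.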

How the data were processed

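Ovary RNA of 9 ewes was analysed, grouped by the labels into Dorset, Han BB and Han ++ with 3 ewes each. The authors aligned the reads with TopHat to Oar_v3.1, kept uniquely mapped reads and deposited raw read counts per gene row, without normalization. The counting program, its use of the strand and the tool versions were not given in the sources used here. The library kit is stated in 2 ways, as stranded total RNA with ribosomal RNA removal in the methods and as another Illumina RNA kit in the labels, so rows with overlapping or near-identical loci are uncertain.

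The deposited counts were fitted in R 4.3.3 with edgeR 4.0.16 (quasi-likelihood, TMM, filterByExpr), all 9 libraries in 1 model of 3 groups, with Benjamini-Hochberg adjustment over 16871 rows. Log2 CPM for correlations used a prior count of 0.5. Alternatives were DESeq2 1.42.0, its size factors in edgeR, limma 3.58.1 voom with quality weights, no filter, a filter of 1 CPM in 3 libraries, 2 groups only, no W4 and D6 or a term for them, and each library left out; rows of 1 symbol were also summed, a choice made after seeing the data. Totals of 10803913 to 20992535 reads per library limit rows with few reads, and the spread between ewes, a common biological coefficient of variation of 0.472, limits the rest. The p-values measure the spread between these libraries, 1 per ewe.

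The Notch genes, the marker lists and the pathway list were chosen with earlier results of these data known. All Notch rows were described. Log2 fold changes were given singly for Notch rows with an unadjusted p under 0.05 or a fold of at least 1.5 in a pairwise comparison, and pathway rows were named at an unadjusted p under 0.05 (at most 6 per comparison). RBPJ, SNW1, ADAM10, ADAM17, PSENEN and HEYL were picked with their values in view. The 2 most correlated rows were named per Notch row, and those of JAG1 are not reported here. Gene numbers were matched through the RefSeq table of another sheep assembly, used for names only. The script was tested on simulated data. Figures were drawn with matplotlib 3.10.9.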

Additional observations from a re-analysis of the deposited data

How the results depend on the processing

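No Notch row in any comparison, and no other pathway row in the 3 pairwise comparisons, was called under any alternative, each library left out in turn included. The number of Notch rows above 0 in Han BB over Dorset went from 5 to 3 without W2, D4 or D6. HES1.1 was below 0 in all alternatives of the 3 comparisons with Dorset. With single libraries left out, its log2 fold change ranged from -0.98 to -0.64 in Han BB over Dorset (an unadjusted p under 0.05 in 7 of 9 fits, not without W1 or D5), from -1.04 to -0.56 in Han ++ over Dorset (6 of 9, not without W7, W8 or D5) and from -0.95 to -0.6 in both Han groups over Dorset (9 of 9). NOTCH3 ranged from 0.47 to 1.29 in Han ++ over Dorset, the highest without D5, and from -0.98 to -0.34 in Han BB over Han ++. The row NOTCH2 in Han BB over Dorset turned to 0.45 in limma voom with quality weights and to 0.61 without D4, and the cause was not tested. With a term for W4 and D6, DLL4 also had an unadjusted p under 0.05 in Han ++ and in both Han groups over Dorset. With this term, 5 and 8 of the 59 other pathway rows had such a p in these comparisons, against 1 and 4 in the main fit. The share over all tested rows with this term is not given here, so the DLL4 result has no background beside it. Over all rows, calls depended on the tool: DESeq2 called 38 in Han BB over Dorset, 65 in Han ++ over Dorset, 2 in Han BB over Han ++ and 88 in both Han groups over Dorset, and edgeR 0, 1, 0 and 0. edgeR called 2, 22, 0 and 6 without W4 and D6, and 1, 78, 0 and 71 with a term for them, and limma 0, 0, 2 and 0. Levels per transcript length were planned and not run, because no transcript lengths of the build were used here. No paired analysis was possible because each ewe gave 1 library and belonged to 1 group. With rows of 1 symbol summed, the median of the Notch rows was 0.02 in Han BB over Dorset, 0.37 in Han ++ over Dorset and -0.22 in Han BB over Han ++.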
